A study of Lupinus albus with 12 samples.

Results

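The comparison set root tips of white lupin (Lupinus albus, wild type, cultivar Amiga) after 80 min in 10 mM sucrose against root tips after 40 min in the same sugar. It used 6 of the 12 libraries of the series, all 3 at 80 min and all 3 at 40 min, and no untreated library entered the contrast. Of the 33388 genes in the deposited table, 28980 had enough reads to be tested. Each library was made from the root tip sections of 1 plant, so the 3 replicates of a time are 3 plants. Plants grew in hydroponic Hoagland solution, and sucrose dissolved in that solution was added to selected pots. The other 6 libraries were 3 untreated plants harvested at 0 min and 3 plants at 20 min, and they entered the fit only to estimate the spread between plants. Their values are given below beside those at 40 and 80 min, as a description. All plants in the contrast had received sucrose, and none was kept for 40 or 80 min without it, so longer exposure to sucrose and the passing of 40 min cannot be told apart. The age of the plants at harvest is not given in the labels. The sections hold every cell type of the root tip. A lower level can therefore mean fewer cells of a type or less RNA per cell, and these cannot be told apart in any result below.

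Sucrose is both the carbon that a root receives from the shoot and a signal. Plant cells read it through trehalose 6-phosphate, whose level follows sucrose, through the SnRK1 kinase, which is active when sugar is short, and through the TOR kinase, which promotes ribosome production and growth when sugar is ample. Sugar supply is also tied to abscisic acid, ethylene and cytokinin, hormones that set root growth, and to cell wall enzymes that loosen or stiffen the growing tip. White lupin is known for dense lateral rootlets, called cluster roots, that release carboxylates and free phosphate from soil.

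Read totals ran from 60412399 to 77259779 at 40 min and from 65512124 to 105299704 at 80 min. The libraries of 80 min were not alike. Levels are in CPM, read counts scaled to equal library size. A principal component analysis of log2 CPM over the 12 libraries gave a first axis with 18.8% of the variance, on which 80 min replicates 1 and 2 stood at -145.3 and -128.5 and replicate 3 at 107.7. The 40 min plants stood at -20.1, 85.7 and -10.7. Replicate 3 of 80 min was the highest or lowest of the 6 plants for 48.8% of the genes, and it had the lowest library weight of all 12 (0.195) in a fit that weights libraries by their spread. Results that change when this plant is left out are given both ways below. Marker lists are given as a description, with no reference value beside them, so the tissue label was not tested. Root cap genes, 4 by name, summed to between 75.6 and 145.8 CPM in the 6 plants. Photosynthesis genes, 160 by name, summed to between 883.7 and 1279 CPM in the 6 plants, and CASP-like proteins, related to those that place the Casparian strip of the endodermis, summed to between 434.8 and 697.8 CPM.

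Across the transcriptome, no gene passed edgeR's quasi-likelihood test at an adjusted p of 0.05, neither higher nor lower at 80 min (0% of genes in each direction). The smallest Benjamini-Hochberg adjusted p from edgeR was 0.0897, reached by 3 genes. At an unadjusted p under 0.05, edgeR listed 1307 genes (4.51% of those tested), 595 higher at 80 min (2.05%) and 712 lower (2.46%). If no gene differed, a share of about 0.05 would be expected under this threshold, and the total found was no larger. DESeq2, run on the same genes, called 97 genes higher (0.335%) and 155 lower (0.535%). Of those, 63 of the 97 and 119 of the 155 had levels that did not overlap between the 3 plants of each time, against 1471 genes higher without overlap (5.08%) and 1258 lower (4.34%) over all genes tested. DESeq2 called these genes from the same plants, so the larger share without overlap is not separate support. Without 80 min replicate 3, edgeR called 18 genes higher (0.0609%) and 164 lower (0.555%). Without both that plant and 20 min replicate 2, the other library far from its group, edgeR called 146 higher (0.496%) and 523 lower (1.78%). The median log2 fold change of all genes was 0.066 with every library and 0.006 without that plant. A gene is described below as called only by the tool named in its sentence, and a gene that edgeR did not call with all libraries is given by its values.

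**Figure D1:**
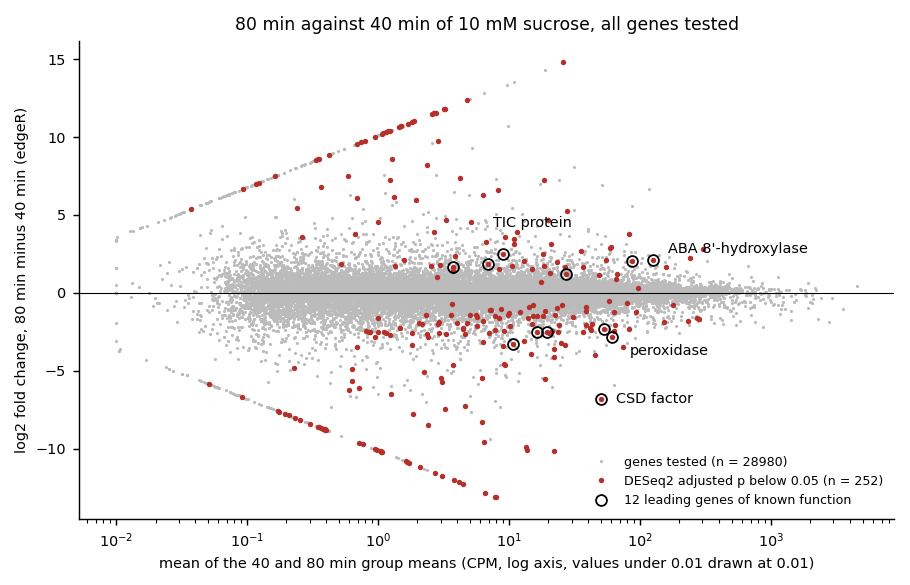
Each point is 1 of the 28980 genes tested, with the mean of the 40 and 80 min group means in CPM on a log axis and the edgeR log2 fold change (80 min minus 40 min) on the vertical axis. Red points are the 252 genes that DESeq2 called and circles are the 12 leading genes described in the text. The slanted outer lines are genes with no reads at 40 min or at 80 min. The cold shock domain factor lies at -6.81, far below the other circled genes.

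The lowest p in the comparison belonged to a cold shock domain (CSD) factor, Lalb_Chr19g0139191, the single gene named to this family in the table. CSD proteins bind nucleic acids, and in Arabidopsis they act as RNA chaperones in the cold. The gene stood at 104, 67.8 and 130 CPM in the 3 plants at 40 min and at 1.47, 0.143 and 1.08 CPM at 80 min. Every plant at 80 min lay far below every plant at 40 min, and the mean was 112-fold lower. Its log2 fold change was -6.81 (SE 0.75), with an adjusted p of 0.0897 in edgeR and 8.2e-25 in DESeq2. Control plants held 85.4, 74.7 and 77.9 CPM and plants at 20 min 54.5, 39.5 and 38.0 CPM. The low level was thus measured in the 3 plants at 80 min and in none of the other 9. Without 80 min replicate 3 the edgeR adjusted p was 0.025.

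An ACC synthase, Lalb_Chr05g0224501, which makes the precursor of ethylene, stood at 25.1, 31.6 and 42.8 CPM at 40 min and at 5.41, 4.98 and 7.48 CPM at 80 min. The groups were well apart, with a mean 5.57-fold lower at 80 min. The log2 fold change of the synthase was -2.48 (SE 0.31), with an adjusted p of 0.0897 in edgeR and 1.38e-11 in DESeq2. Controls averaged 28.5 ± 8.49 CPM (SD, n = 3) and 20 min plants 25.1 ± 4.16 CPM, close to the level at 40 min. An ACC oxidase, Lalb_Chr17g0347281, which makes ethylene from that precursor and was the most abundant gene of the ethylene list, stood at 593, 980.1 and 741 CPM at 40 min. At 80 min it stood at 156 and 171 CPM in replicates 1 and 2 but at 613 CPM in replicate 3, inside the 40 min range, and edgeR gave an adjusted p of 1. The ethylene list, with 28 genes tested, also holds receptors and signalling genes. DESeq2 called 1 of them lower (3.57%, against 0.535% of all genes) and none higher. An ethylene receptor, Lalb_Chr18g0044061, stood at 24.2, 28.7 and 30.1 CPM at 40 min and at 40.4, 42.5 and 93.4 CPM at 80 min, without overlap but with a DESeq2 adjusted p of 0.22.

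Class III peroxidases, secreted enzymes that use hydrogen peroxide to cross-link or loosen the cell wall, had the most DESeq2 calls of any list. Of 74 tested, 11 had an unadjusted edgeR p under 0.05 and all 11 were lower at 80 min (14.9%, against 2.46% of all genes). DESeq2 called 7 of them lower (9.46%, against 0.535%). Levels of 12 peroxidases lay below the 40 min plants without overlap (16.2%, against 4.34%). Lalb_Chr18g0052481 stood at 71.4, 68.0 and 126 CPM at 40 min and at 17.5, 16.4 and 19.9 CPM at 80 min. The plants at 80 min lay within a few CPM of each other, far below the 40 min plants, while controls averaged 63.1 ± 16.5 CPM. Its log2 fold change was -2.30 (SE 0.28), with an adjusted p of 0.0897 in edgeR and 4.59e-11 in DESeq2.

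A pair of adjacent peroxidase genes showed the same order of groups. Lalb_Chr04g0251831 stood at 60.1, 133 and 127 CPM at 40 min and at 10.2, 15.8 and 19.5 CPM at 80 min, a log2 fold change of -2.82 (SE 0.42) with an adjusted p of 0.262 in edgeR and 6.87e-08 in DESeq2. Its neighbour, Lalb_Chr04g0251821, stood at 89.9, 141 and 180 CPM at 40 min and at 23.8, 34.6 and 24.9 CPM at 80 min. Both were also low at 20 min, at 28.2 ± 12.0 and 43.9 CPM on average, and high in controls, at 138 and 133 CPM. How reads that match several genes were counted is not given in the sources used here, so the split of reads between such neighbours is uncertain. The remaining 4 peroxidases that DESeq2 called were Lalb_Chr02g0143901, Lalb_Chr03g0028861, Lalb_Chr20g0108361 and Lalb_Chr22g0354551. At 40 min Lalb_Chr03g0028861 stood at 184, 207 and 328 CPM, and at 80 min at 59.7, 63.1 and 71.1 CPM.

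The peroxidases as a family did not share this order. The most abundant member, Lalb_Chr07g0177241, stood at 2330, 2331 and 1166 CPM at 40 min and at 2560, 2400 and 2168 CPM at 80 min, overlapping. Per length it averaged 731 FPKM at 40 min, against 37.0 FPKM for Lalb_Chr18g0052481. The summed level of 81 named peroxidases was 8387, 7613 and 7042 CPM at 40 min and 6454, 6668 and 8460 CPM at 80 min (exact two-sided permutation test, p = 0.6, where 3 plants against 3 cannot go below 0.1). The median log2 fold change of the list was -0.23, and -0.99 without 80 min replicate 3. The 3 plants at 80 min agreed on the genes named above and differed on the sum.

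Other wall and peroxide genes were low in every plant at 80 min. A cellulose synthase, Lalb_Chr20g0114291, stood at 34.8, 32.9 and 15.5 CPM at 40 min and at 4.79, 4.18 and 5.92 CPM at 80 min. Its log2 fold change was -2.48 (SE 0.38), with an adjusted p of 0.276 in edgeR and 2.9e-07 in DESeq2. A glutathione peroxidase, Lalb_Chr21g0306541, which reduces peroxides inside the cell, stood at 14.3, 19.4 and 24.6 CPM at 40 min and at 2.19, 2.91 and 1.01 CPM at 80 min (DESeq2 adjusted p 1.97e-07). For both genes the highest plant at 80 min lay below the lowest at 40 min, and both had control means near the 40 min level, 38.1 and 16.2 CPM. Of 163 cellulose synthase and pectin genes tested, 5 were higher (3.07%, against 2.05% of all genes) and 17 lower (10.4%, against 2.46%) at an unadjusted p under 0.05. DESeq2 called 4 lower (2.45%, against 0.535%) and none higher. The other 3 were pectinesterases, which remove methyl groups from pectin. Among these, Lalb_Chr02g0146461 stood at 71.2, 19.7 and 123 CPM at 40 min and at 9.81, 8.29 and 22.2 CPM at 80 min, so its groups overlapped.

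Wall genes did not all stand low. Another cellulose synthase, Lalb_Chr07g0184651, stood at 90.3, 113 and 108 CPM at 40 min and at 128, 327 and 226 CPM at 80 min (DESeq2 adjusted p 0.0897). An expansin, Lalb_Chr08g0239121, of the proteins that loosen the wall in acid conditions, stood at 145, 335 and 273 CPM at 40 min and at 87.1, 35.9 and 88.3 CPM at 80 min. Its groups did not overlap, and its DESeq2 adjusted p was 0.0518. In the list of 78 expansins and xyloglucan enzymes, DESeq2 called no gene in either direction and edgeR listed 3 higher (3.85%, against 2.05% of all genes) and 6 lower (7.69%, against 2.46%) at an unadjusted p under 0.05.

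**Figure D2:**
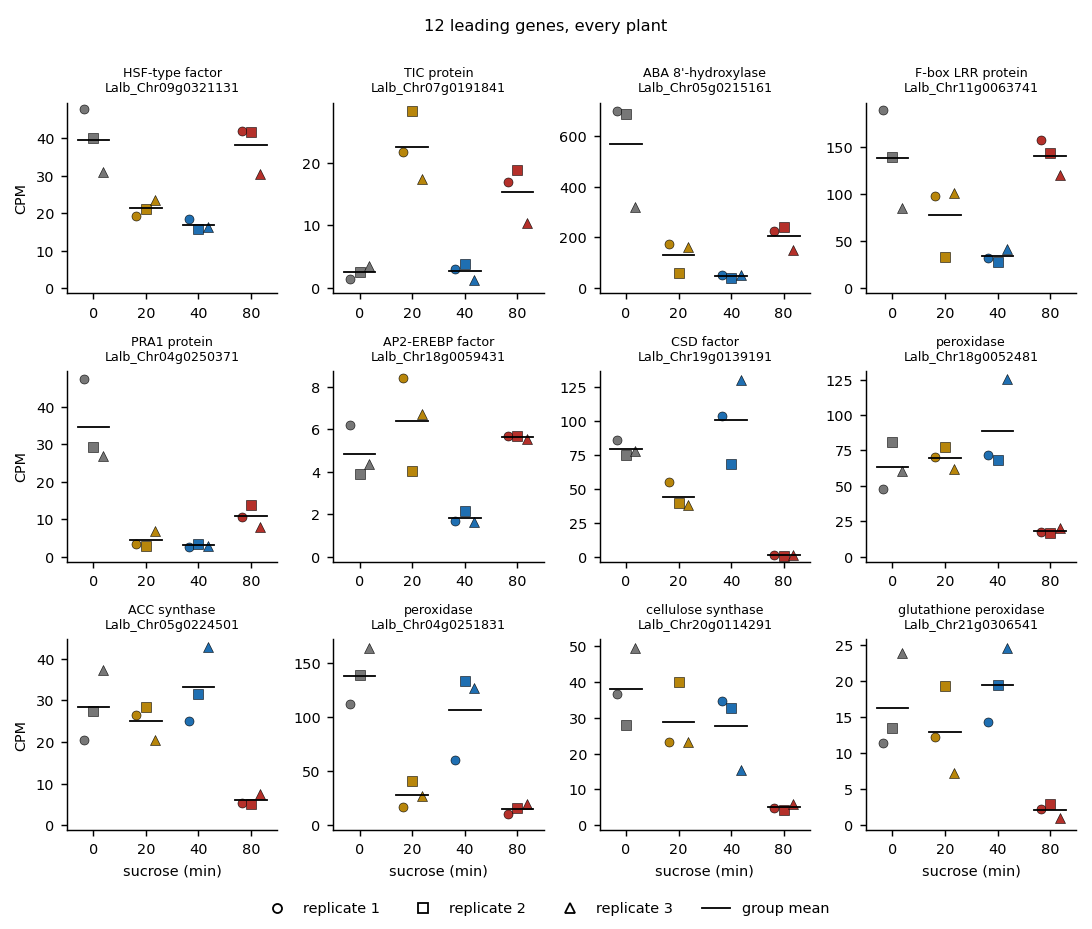
Levels in CPM of the 12 leading genes in every plant, by minutes in sucrose, with replicates by symbol and the group mean as a line. Each panel has its own linear axis. In the 6 genes that stood lower, all 80 min plants lie below all 40 min plants, and in the 6 that stood higher all lie above, as the choice of these genes required.

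Genes of hormone breakdown and transport followed. A cytokinin dehydrogenase, Lalb_Chr07g0180871, which degrades cytokinins, stood at 32.5, 46.7 and 40.9 CPM at 40 min and at 5.32, 2.63 and 12.9 CPM at 80 min. All plants at 80 min were low, replicate 3 the least so. In the fit this gave a log2 fold change of -2.53 (SE 0.48), with an adjusted p of 0.552 in edgeR and 7.35e-05 in DESeq2. Controls averaged 91.5 ± 11.7 CPM and 20 min plants 48.5 ± 7.16 CPM. The most abundant cytokinin dehydrogenase, Lalb_Chr08g0232211, stood at 1597, 8392 and 3143 CPM at 40 min and at 172, 175 and 3259 CPM at 80 min. Here 80 min replicates 1 and 2 lay below every 40 min plant and replicate 3 lay between them. Per length this gene averaged 1520 ± 1210 FPKM at 40 min, against 14.6 ± 2.37 FPKM for Lalb_Chr07g0180871. Of 67 cytokinin genes tested, 1 was higher and 6 lower at an unadjusted p under 0.05 (8.96% lower, against 2.46%). DESeq2 called 2 lower (2.99%, against 0.535% of all genes). Of these, Lalb_Chr23g0276561 stood at 0, 1.20 and 0.924 CPM at 40 min and had no reads at 80 min, so its groups overlapped.

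Auxin genes stood in both directions. An auxin response factor, Lalb_Chr15g0086651, a transcription factor of the auxin pathway, stood at 2.94, 5.51 and 4.52 CPM at 40 min and at 0.137, 0.133 and 0.112 CPM at 80 min (DESeq2 adjusted p 0.000284). A related gene, Lalb_Chr17g0345811, stood at 48.0, 27.0 and 50.9 CPM at 40 min and at 3.95, 3.14 and 0.056 CPM at 80 min (DESeq2 adjusted p 0.0483). Neither overlapped between the times, but both varied in the other plants. Lalb_Chr15g0086651 stood at 3.88, 6.76 and 0.128 CPM in controls, with replicate 3 at the 80 min level, and averaged 1.11 CPM at 20 min. Lalb_Chr17g0345811 stood at 1.42, 19.57 and 0.73 CPM at 20 min, with replicate 2 well above the 80 min plants. The small auxin-up RNA gene Lalb_Chr20g0108621, from a family quickly induced by auxin, stood the other way, at 23.2, 25.6 and 19.4 CPM at 40 min and 79.5, 89.5 and 64.8 CPM at 80 min (DESeq2 adjusted p 0.057). Controls averaged 157 ± 61.6 CPM and 20 min plants 76.8 ± 48.0 CPM. For auxin genes, 190 by name, the summed level was 2846, 3109 and 3310 CPM at 40 min and 3602, 4055 and 3553 CPM at 80 min, without overlap (exact permutation p = 0.1, the smallest possible). Controls summed to 3231, 3293 and 3761 CPM and 20 min plants to 4196, 2885 and 3743 CPM.

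Nutrient and defence genes added single members. An ammonium transporter, Lalb_Chr07g0184111, stood at 47.4, 47.7 and 64.6 CPM at 40 min and at 27.8, 21.3 and 22.5 CPM at 80 min, with a log2 fold change of -1.16 (SE 0.21) and an adjusted p of 0.551 in edgeR and 0.000109 in DESeq2. An SPX domain gene, Lalb_Chr16g0385711, of the family that senses phosphate, stood at 3.39, 3.91 and 6.33 CPM at 40 min and at 1.98, 0.609 and 1.15 CPM at 80 min (DESeq2 adjusted p 0.0438). A chitinase, Lalb_Chr02g0141361, which cuts fungal cell walls, stood at 367, 450.3 and 471 CPM at 40 min and at 73.7, 98.8 and 233 CPM at 80 min (DESeq2 adjusted p 0.00826). A RALF peptide gene, Lalb_Chr04g0260681, whose family signals through receptor kinases at the wall, stood at 76.3, 90.6 and 100.0 CPM at 40 min and at 21.2, 32.1 and 58.6 CPM at 80 min (DESeq2 adjusted p 0.0473). In all 4 genes every 80 min plant lay below every 40 min plant. In the chitinase and the RALF gene, replicate 3 was nearest to the 40 min plants.

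WRKY transcription factors, regulators of defence and stress genes, leaned the same way. Of 101 tested, 1 was higher and 8 lower at an unadjusted p under 0.05 (7.92% lower, against 2.46%). DESeq2 called 3 lower (2.97%, against 0.535% of all genes). Lalb_Chr10g0098011 stood at 2.58, 3.51 and 4.25 CPM at 40 min and at 0.458, 0.514 and 1.58 CPM at 80 min (DESeq2 adjusted p 0.0175). A glutathione transferase, Lalb_Chr05g0217501, of the enzymes that tag toxic compounds with glutathione, stood at 8.07, 15.4 and 12.9 CPM at 40 min and at 0.927, 1.20 and 3.91 CPM at 80 min (DESeq2 adjusted p 0.0224). The most abundant genes of these families differed less. The leading WRKY gene, Lalb_Chr23g0276611, averaged 269 ± 50.3 CPM at 40 min and 239 ± 90.7 CPM at 80 min, and the leading glutathione transferase, Lalb_Chr16g0392551, averaged 1476 ± 226 and 992.5 ± 137 CPM.

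Among sugar signalling genes, 1 was called by DESeq2. This trehalose 6-phosphate phosphatase, Lalb_Chr12g0203741, which removes the phosphate of that signal, stood at 6.78, 8.09 and 13.5 CPM at 40 min and at 78.8, 64.9 and 39.4 CPM at 80 min. All 3 plants at 80 min lay above the 40 min plants, with a mean 6.44-fold higher. Its log2 fold change was 2.69 (SE 0.65), with an adjusted p of 0.73 in edgeR and 0.00383 in DESeq2. Controls stood at 106.8, 115.2 and 46.8 CPM and 20 min plants at 112.5, 16.25 and 67.4 CPM. The 80 min plants lay within the wide range at 20 min, where replicate 2 was close to the 40 min plants. The most abundant trehalose phosphate synthase, Lalb_Chr05g0222101, which belongs to the family that makes the signal, averaged 109 ± 50.6 CPM at 40 min and 128 ± 17.6 CPM at 80 min, overlapping. Of 29 trehalose phosphate enzymes tested, DESeq2 called 1 higher (3.45%, against 0.335% of all genes) and none lower.

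FLZ zinc finger proteins bind SnRK1 and adapt it to its partners. The FLZ gene with the lowest p, Lalb_Chr09g0329621, stood at 41.4, 36.9 and 87.8 CPM at 40 min and at 197, 194 and 98.7 CPM at 80 min (edgeR adjusted p 1). The groups were apart, but 80 min replicate 3 and 40 min replicate 3 lay close together. Over 39 genes named as SnRK1 partners, SNF1-related proteins or TOR components, summed levels were 595, 732 and 779 CPM at 40 min and 921, 948 and 1109 CPM at 80 min, a ratio of 1.41 (exact permutation p = 0.1, the smallest possible). The 3 controls summed to 1628, 1735 and 1085 CPM. No single gene of the 31 tested had an unadjusted edgeR p under 0.05, and DESeq2 called none.

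An abscisic acid 8'-hydroxylase, Lalb_Chr05g0215161, which starts the breakdown of this hormone, stood at 51.6, 39.8 and 49.9 CPM at 40 min and at 224, 242 and 149.8 CPM at 80 min. The lowest 80 min plant held about 3 times the level of the highest 40 min plant. Its log2 fold change was 2.12 (SE 0.44), with an adjusted p of 0.552 in edgeR and 0.000708 in DESeq2. Controls, at 699, 688 and 319 CPM, lay above both times. A second gene of the same name, Lalb_Chr09g0325021, stood at 31.4, 40.2 and 55.5 CPM at 40 min and at 207, 218 and 58.0 CPM at 80 min, where replicate 3 barely exceeded the highest 40 min plant (DESeq2 adjusted p 0.2). With these genes the summed abscisic acid list was 166, 218.5 and 222 CPM at 40 min and 560.0, 592.5 and 414 CPM at 80 min, a ratio of 2.58 (exact permutation p = 0.1, the smallest possible). The sum follows its largest members. The median log2 fold change of the 7 genes tested was 0.18 with all libraries and -0.10 without 80 min replicate 3.

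The low-oxygen list held 4 cysteine dioxygenases among its higher genes. In Arabidopsis such enzymes, called plant cysteine oxidases, use oxygen to mark ERF regulators for breakdown and are themselves more abundant at low oxygen. Lalb_Chr06g0175451 stood at 11.9, 10.4 and 16.1 CPM at 40 min and at 53.8, 38.7 and 28.7 CPM at 80 min (DESeq2 adjusted p 0.0147). Lalb_Chr21g0318921 stood at 19.9, 13.5 and 27.9 CPM at 40 min and at 94.8, 97.1 and 76.2 CPM at 80 min (DESeq2 adjusted p 0.0162). Both genes were apart between the times in every plant, with control means of 96.8 and 183 CPM. Another, Lalb_Chr14g0364741, also called by DESeq2, had no reads at 40 min and 5.95, 3.06 and 0 CPM at 80 min. The fourth, Lalb_Chr02g0159581, stood at 16.1, 19.2 and 32.7 CPM at 40 min and at 63.3, 63.0 and 52.3 CPM at 80 min (DESeq2 adjusted p 0.264).

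Other low-oxygen genes were mixed. Non-symbiotic hemoglobin 1, Lalb_Chr01g0002841, which removes nitric oxide when oxygen is short, stood at 150.1, 117 and 213 CPM at 40 min and at 416, 469 and 235 CPM at 80 min (DESeq2 adjusted p 0.112). The abundant alcohol dehydrogenase 1 gene, Lalb_Chr23g0271341, the last step of ethanol fermentation, overlapped, at 486, 492 and 991 CPM against 1601, 810.1 and 720.5 CPM. A different alcohol dehydrogenase, Lalb_Chr22g0354051, stood lower at 80 min, at 44.6, 23.6 and 80.3 CPM against 11.6, 1.75 and 1.20 CPM. Of 30 genes tested, 6 were higher (20%, against 2.05% of all genes) and 1 lower at an unadjusted p under 0.05, and 9 lay above the 40 min plants without overlap (30%, against 5.08%). Summed levels overlapped, at 2121, 2027 and 3035 CPM against 4773, 3891 and 2831 CPM. Controls summed to between 5648 and 10130 CPM and 20 min plants to 32210, 2535 and 21810 CPM, a wider spread than between 40 and 80 min. The gene Lalb_Chr23g0271341 made up 23820, 901.6 and 15680 CPM of the 20 min sums, so their spread largely followed this 1 gene.

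**Figure D3:**
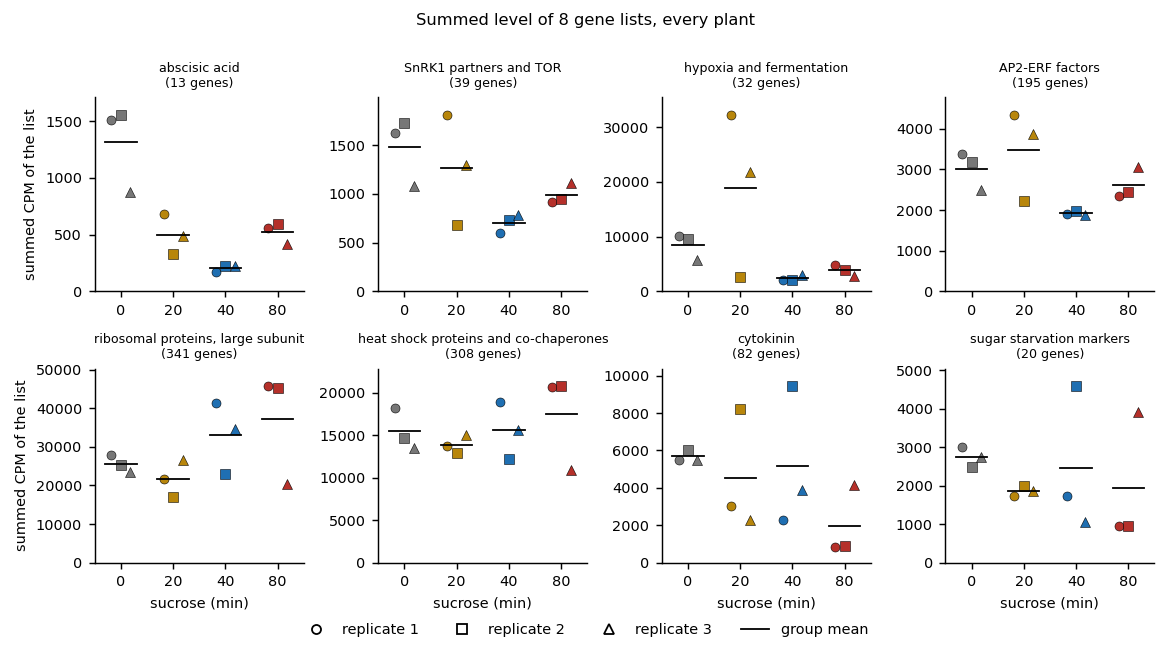
Summed CPM of 8 gene lists in every plant by minutes in sucrose, with replicates by symbol and the group mean as a line. In the abscisic acid, SnRK1 partner and AP2-ERF lists the 3 plants at 80 min lie above the 3 at 40 min. In the ribosomal, heat shock, cytokinin and sugar starvation lists 80 min replicate 3 lies apart from replicates 1 and 2.

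Starch and regulator genes gave further values above those at 40 min. A beta-amylase, Lalb_Chr20g0118131, which releases maltose from starch, stood at 27.2, 37.2 and 30.3 CPM at 40 min and at 91.4, 107 and 46.2 CPM at 80 min (DESeq2 adjusted p 0.0927), against a control mean of 369 CPM. An AT-hook DNA-binding protein gene, Lalb_Chr20g0116811, stood at 36.8, 47.0 and 36.4 CPM at 40 min and at 83.6, 104 and 95.6 CPM at 80 min (DESeq2 adjusted p 0.0181), against a control mean of 299 CPM. A bHLH factor, Lalb_Chr25g0283231, stood at 11.4, 13.2 and 3.42 CPM at 40 min and at 38.4, 41.9 and 32.2 CPM at 80 min (DESeq2 adjusted p 0.0181), against a control mean of 211 CPM. These 3 genes shared an order of group means, highest in controls, lowest at 40 min or 20 min, and between at 80 min.

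Regulators and a gene named for a plastid protein were among the 6 genes with the lowest p that stood higher. A heat shock transcription factor gene, Lalb_Chr09g0321131, stood at 18.3, 15.7 and 16.2 CPM at 40 min and at 42.0, 41.8 and 30.6 CPM at 80 min, with a log2 fold change of 1.19 (SE 0.22) and an adjusted p of 0.551 in edgeR and 6.26e-05 in DESeq2. An F-box protein gene, Lalb_Chr11g0063741, of the subunits that choose targets for ubiquitin ligases, stood at 31.7, 28.3 and 42.1 CPM and at 158, 144 and 120.1 CPM (DESeq2 adjusted p 0.00103). An AP2-EREBP factor, Lalb_Chr18g0059431, stood at 1.68, 2.13 and 1.61 CPM and at 5.68, 5.67 and 5.53 CPM (DESeq2 adjusted p 0.000189). Their control means were 39.7, 138 and 4.82 CPM. A PRA1 gene, Lalb_Chr04g0250371, of a family in vesicle traffic, stood at 2.58, 3.41 and 2.90 CPM and at 10.5, 13.9 and 7.95 CPM, below its control mean of 34.5 CPM. A gene named for the plastid import protein TIC 214, Lalb_Chr07g0191841, stood at 3.07, 3.90 and 1.28 CPM at 40 min and at 16.9, 18.9 and 10.4 CPM at 80 min, while controls averaged 2.51 CPM and 20 min plants 22.4 CPM (DESeq2 adjusted p 0.000102). In Arabidopsis the TIC 214 protein is encoded in the plastid genome, whereas the ID of this lupin gene places it on a numbered chromosome.

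Transcription factor families differed in their shares. Of 169 AP2-ERF factors tested, 14 were higher (8.28%, against 2.05% of all genes) and 3 lower at an unadjusted p under 0.05, and 18 lay above the 40 min plants without overlap (10.7%, against 5.08%). Summed over 195 genes they reached 1902, 1985 and 1879 CPM at 40 min and 2341, 2441 and 3053 CPM at 80 min (exact permutation p = 0.1, the smallest possible). Controls summed to 3386, 3187 and 2488 CPM. Lalb_Chr06g0166561, among the more abundant AP2-ERF genes, stood at 40.6, 31.1 and 37.8 CPM at 40 min and at 248, 212 and 126 CPM at 80 min (DESeq2 adjusted p 0.0882). Its control mean was 439 CPM, and 20 min plants stood at 753, 44.6 and 569 CPM. DESeq2 called 1 AP2-ERF factor higher (0.592%, against 0.335% of all genes) and none lower. The median of the list was 0.25, or -0.01 without 80 min replicate 3. Among 244 bHLH factors, DESeq2 called 2 higher and 2 lower (0.82% each, against 0.335% and 0.535%). Of the lower ones, Lalb_Chr10g0100601 had reads in only 1 plant of the 2 times, so its groups overlapped. Of 341 MYB-HB-like factors DESeq2 called 1 higher and 1 lower (0.293% each, below both shares over all genes). The lower one, a Myb/SANT-like gene, Lalb_Chr04g0259891, stood at 17.9, 16.7 and 15.2 CPM at 40 min and at 7.15, 2.48 and 1.97 CPM at 80 min (DESeq2 adjusted p 0.00153). Among 411 C2H2 zinc finger factors DESeq2 called 2 higher (0.487%, against 0.335% of all genes) and 3 lower (0.73%, against 0.535%). Of the higher ones, Lalb_Chr12g0207861 had no reads at 40 min and stood at 0, 0.333 and 3.79 CPM at 80 min, so its groups overlapped.

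A separate set of genes differed between 40 min and replicates 1 and 2 of 80 min, with replicate 3 at the 40 min level. Chaperones, which keep proteins folded, led those that stood higher. A ClpB gene, Lalb_Chr13g0302911, whose product pulls proteins out of aggregates, stood at 15.7, 9.41 and 16.9 CPM at 40 min, and at 148 and 163 CPM in 80 min replicates 1 and 2 but at 9.52 CPM in replicate 3. A small heat shock protein gene, Lalb_Chr15g0084441, stood at 0.0807, 0.133 and 0.266 CPM at 40 min and at 18.2, 30.1 and 0.182 CPM at 80 min. Another, Lalb_Chr01g0008711, stood at 1.23, 0.786 and 2.33 CPM at 40 min and at 25.9, 37.8 and 0.84 CPM at 80 min. All 3 overlapped between the times through that 1 plant. In the fit that left it out their edgeR adjusted p values were 0.0221, 0.0259 and 0.025, and with all libraries 0.878, 0.73 and 0.859. All 3 were chosen for a low p in that fit and for 80 min replicates 1 and 2 lying outside the 40 min range. Neither feature is therefore separate support.

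Further chaperones did not all have the same split. An Hsp90 gene, Lalb_Chr19g0130631, had it, at 6.52, 5.71 and 18.7 CPM at 40 min and at 98.0, 170.2 and 5.21 CPM at 80 min. The most abundant Hsp90 gene, Lalb_Chr15g0082321, stood at 2300, 944.5 and 1476 CPM at 40 min and at 2317, 2457 and 696 CPM at 80 min. There 80 min replicate 1 lay beside 40 min replicate 1, and 80 min replicate 3 lay below every 40 min plant. Of 48 HSP20 genes tested, 20 were above every 40 min plant in both 80 min replicates 1 and 2 (41.7%, against 22.6% of all genes), and 10 were above every 40 min plant in replicate 3 (20.8%, against 31% of all genes). Their summed level was 694, 665 and 667 CPM at 40 min and 771, 832 and 649 CPM at 80 min, a modest range beside that of single genes. Over 294 heat shock and co-chaperone genes tested, 16 were higher (5.44%, against 2.05%) and 3 lower (1.02%, against 2.46%) at an unadjusted p under 0.05. DESeq2 called 4 higher (1.36%, against 0.335% of all genes) and 1 lower (0.34%, against 0.535%).

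A C2H2 zinc finger factor, Lalb_Chr16g0385321, and a RING-type ubiquitin ligase gene, Lalb_Chr04g0255991, were split in the way of the ClpB gene. The factor stood at 4.92, 3.19 and 7.55 CPM at 40 min and at 39.6, 40.9 and 1.71 CPM at 80 min, and the ligase at 7.10, 9.87 and 9.99 CPM against 33.3, 43.3 and 7.60 CPM. Among genes that stood lower, a BTB-POZ gene, Lalb_Chr07g0193891, held 13.1, 14.5 and 10.6 CPM at 40 min, had no reads in 80 min replicates 1 and 2, and held 11.6 CPM in replicate 3. Controls held 13.2, 8.00 and 8.04 CPM, so the absence was seen in 2 of 12 plants. A xyloglucan endotransglucosylase gene, Lalb_Chr09g0325451, which rejoins wall polymers, stood at 187, 377 and 227 CPM at 40 min and at 28.8, 30.2 and 222 CPM at 80 min. A gene named as a polyvinyl alcohol dehydrogenase, Lalb_Chr17g0338661, stood at 21.9, 47.8 and 28.2 CPM at 40 min and at 0.0572, 0.0571 and 22.7 CPM at 80 min. A U-box gene, Lalb_Chr02g0154431, stood at 15.5, 20.2 and 24.1 CPM and at 3.21, 2.41 and 14.8 CPM. An aquaporin, Lalb_Chr21g0305601, which passes water through membranes, stood at 16.3, 34.5 and 30.1 CPM and at 3.15, 3.01 and 17.4 CPM. In each of these genes replicate 3 of 80 min was the plant nearest to the 40 min group. All but the aquaporin were chosen, like the ClpB gene, from the fit without that plant.

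**Figure D4:**
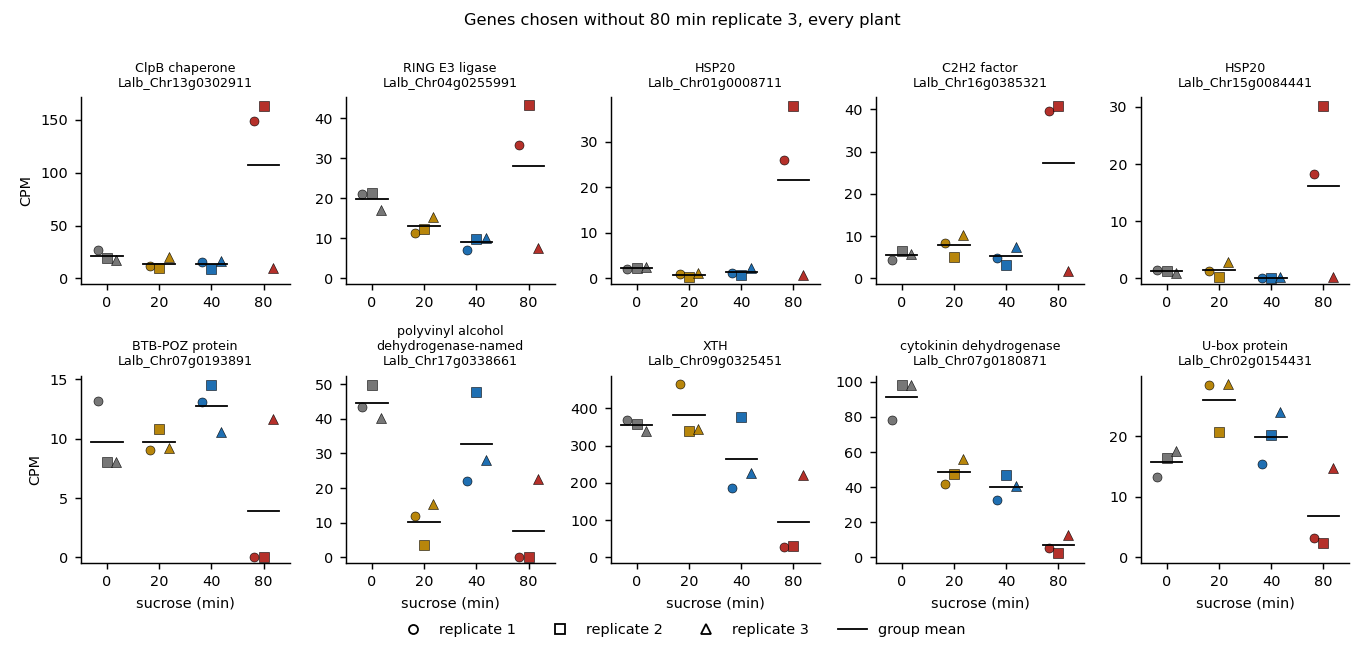
Levels in CPM, in every plant and by minutes in sucrose, of the 10 genes with the lowest p when 80 min replicate 3 was left out. Replicates have symbols, lines are group means over all 3 plants and each panel has its own linear axis. Circles and squares at 80 min lie outside the 40 min range, as the choice of these genes required. The triangle of replicate 3, which was not used in that choice, lies at the 40 min level in most panels.

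Growth genes showed the same 2 libraries apart. Ribosomal proteins of the large subunit, 341 by name, summed to 41340, 22900 and 34740 CPM at 40 min and to 45730, 45360 and 20400 CPM at 80 min. Replicate 2 of 40 min and replicate 3 of 80 min were the low plants. Small subunit proteins summed to 27760, 15810 and 23320 CPM at 40 min and to 32190, 31380 and 14310 CPM at 80 min. Genes of the cell cycle and DNA replication, 160 by name, summed to 3668, 2762 and 3358 CPM and to 4159, 4007 and 2803 CPM. In each list the groups overlapped (exact permutation p = 0.6, 0.6 and 0.5), and the ratio of means was 1.13, 1.16 and 1.12. Left out, 80 min replicate 3 gave ratios of 1.38, 1.43 and 1.25. These ratios kept the low plant of 40 min, so the low plant was removed from 1 group only. That raises the ratio. The median log2 fold change of large subunit genes was 0.20 with all libraries and 0.47 without 80 min replicate 3, again with the low 40 min plant kept. With all libraries, 245 of 315 genes were above 0 (77.8%, against 56.5% of all genes). Neither tool called many of them. DESeq2 called 2 large subunit genes higher (0.635%, against 0.335% of all genes), both of low level. It called none of the small subunit or cell cycle genes.

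Genes that mark sugar shortage were high in the 2 plants where ribosomal genes were low. The most abundant, a dormancy and auxin associated gene, Lalb_Chr18g0059451, stood at 136, 1952 and 18.4 CPM at 40 min and at 266, 32.1 and 1766 CPM at 80 min. Its means at the 2 times, 702 and 688 CPM, hide that range. The list of 20 genes, which also holds asparagine synthetases and enzymes that break down amino acids, summed to 1726, 4581 and 1048 CPM at 40 min and to 963, 949 and 3909 CPM at 80 min. The median log2 fold change of the list was -0.35, with 14 of 18 tested genes below 0 (77.8%, against 43.5%). Without 80 min replicate 3 the median was -1.11, in a fit that kept the high plant of 40 min. A methylcrotonoyl-CoA carboxylase subunit, Lalb_Chr06g0162841, which breaks down leucine, stood at 87.9, 98.2 and 65.9 CPM at 40 min and at 42.4, 40.4 and 57.7 CPM at 80 min, the only gene of the list with an unadjusted edgeR p under 0.05. What set these 2 plants apart was not tested.

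The cytokinin list sum, a bHLH factor and a clock gene also depended on the plant. Summed over 82 genes, the cytokinin list stood at 2255, 9427 and 3860 CPM at 40 min and at 806, 907 and 4161 CPM at 80 min, so the same 2 plants were the high ones of their groups. The dehydrogenase Lalb_Chr08g0232211 made up 1597, 8392 and 3143 CPM of the sums at 40 min and 172, 175 and 3259 CPM at 80 min. The differences in the sum thus largely followed this gene and not the list as a whole. The most abundant bHLH factor, Lalb_Chr20g0110191, stood at 74.9, 488 and 108 CPM at 40 min and at 10.1, 19.4 and 391 CPM at 80 min. GIGANTEA, Lalb_Chr02g0141571, a clock gene that follows the time of day, stood at 42.0, 6.55 and 12.0 CPM at 40 min and at 137, 15.2 and 240 CPM at 80 min, and at 275, 82.9 and 22.2 CPM in controls. Plants of 1 time thus differed in GIGANTEA by more than 10-fold at 80 min and at 0 min, and the hour of harvest is not given in the labels.

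**Figure D5:**
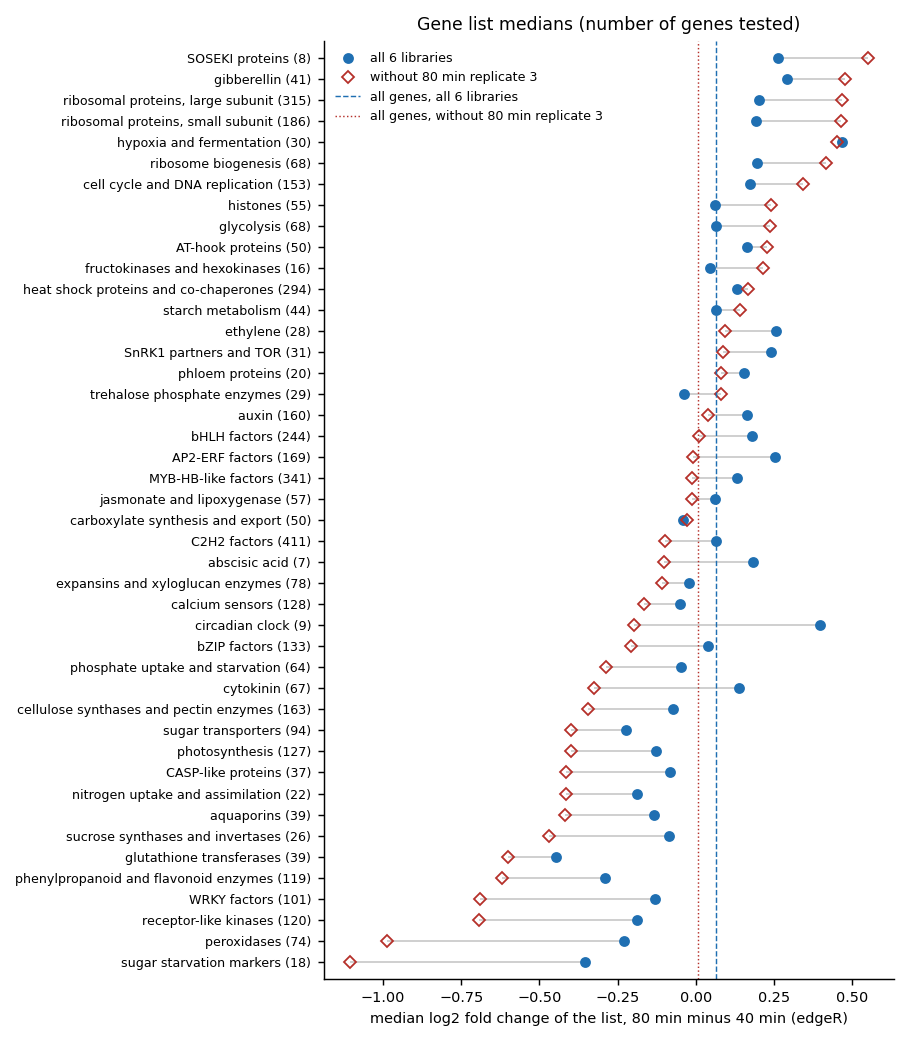
Median log2 fold change (80 min minus 40 min) of each gene list with 5 or more genes tested, with all 6 libraries as filled circles and without 80 min replicate 3 as open diamonds. Dashed and dotted lines are the medians of all genes, 0.066 and 0.006. Sugar starvation markers, peroxidases, receptor-like kinases and WRKY factors lie lower without that plant and ribosomal proteins lie higher.

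Genes of sugar use gave few calls. Of 94 sugar transporters tested, 1 was higher and 8 lower at an unadjusted p under 0.05 (8.51% lower, against 2.46%), and 12 lay below the 40 min plants without overlap (12.8%, against 4.34%). DESeq2 called none. A transporter of the major facilitator family, Lalb_Chr08g0242041, stood at 66.8, 168 and 131 CPM at 40 min and at 10.6, 12.9 and 65.0 CPM at 80 min, and edgeR gave an adjusted p of 0.025 without 80 min replicate 3. The most abundant sucrose carrier, Lalb_Chr06g0161941, averaged 408 ± 33.6 CPM at 40 min and 372 ± 141 CPM at 80 min. A sucrose synthase, Lalb_Chr11g0073991, which splits sucrose, stood at 182, 573 and 450.2 CPM and at 209, 235 and 114 CPM, overlapping. Fructokinases and hexokinases, 16 tested, had no gene with an unadjusted p under 0.05. Of 68 glycolysis genes DESeq2 called 1 lower (1.47%, against 0.535% of all genes). This was a fructose-bisphosphate aldolase of low level, Lalb_Chr10g0107531, at 0.597, 0.0148 and 2.92 CPM and at 0.0114, 0.0286 and 0 CPM.

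Of the 46 lists, 7 had summed levels without overlap between the times, 6 higher at 80 min and 1 lower, each at the smallest p that the exact permutation test over 3 plants against 3 allows (0.1), so no list could pass 0.05. Beside the auxin, abscisic acid, SnRK1 partner and AP2-ERF lists these were the MYB-HB-like factors, at 5159, 5280 and 4704 CPM against 5609, 5855 and 6479 CPM, and the AT-hook proteins, at 1421, 1267 and 1147 CPM against 1509, 1482 and 1552 CPM. In controls the MYB-HB-like list summed to 7187, 6473 and 6134 CPM and the AT-hook list to 1765, 1744 and 1329 CPM. The list lower at 80 min was the CSD list of 1 gene. Lists with little difference included calcium sensors, whose sums ran from 5952 to 6131 CPM at 40 min and from 5333 to 5971 CPM at 80 min, and bZIP factors, of which the leading gene, Lalb_Chr01g0001171, averaged 645 ± 62.0 and 640 ± 161 CPM. Phenylpropanoid and flavonoid enzymes, 119 tested, had 7 genes lower and none higher at an unadjusted p under 0.05 (5.88%, against 2.46%), and DESeq2 called none.

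The remaining lists held at most 1 DESeq2 call each, and the counts here are of genes at an unadjusted edgeR p under 0.05, against 2.05% higher and 2.46% lower over all genes. Gibberellin genes, 41 tested, had 4 higher (9.76%) and 2 lower (4.88%), and DESeq2 called 1 lower (2.44%, against 0.535% of all genes). Starch genes, 44 tested, had 4 higher (9.09%) and 2 lower (4.55%). Genes named as phloem proteins, 20 tested, had 3 higher (15%) and 1 lower (5%), and DESeq2 called none in this list or the starch list. Carboxylate synthesis and export, a known trait of white lupin roots, had 1 gene higher and 1 lower of 50 tested (2% each), no DESeq2 call, and a median log2 fold change of -0.04. Phosphate uptake genes, 64 tested, had 4 lower (6.25%) and none higher, of which DESeq2 called the SPX gene above, and 8 lay below the 40 min plants without overlap (12.5%, against 4.34%). Receptor-like kinases, 120 tested, had 1 higher (0.833%) and 3 lower (2.5%), with a median of -0.19 that became -0.69 without 80 min replicate 3. Histones, SOSEKI proteins and root cap genes had none, and aquaporins, jasmonate genes, ribosome biogenesis genes and clock genes had 1 or 2 each.

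Some genes had no reads in any plant of 1 time and at least 1 CPM in every plant of the other. There were 2 such genes at 40 min and 5 at 80 min. A gene with WD40 repeats, Lalb_Chr22g0355491, had no reads at 40 min and 1.62, 1.53 and 6.92 CPM at 80 min, and all 6 plants at 0 and 20 min had reads, from 1.65 to 5.45 CPM. Against a floor of 3 reads per library, it was at least 77-fold higher at 80 min, with an edgeR adjusted p of 0.125. A glycerophosphodiester phosphodiesterase, Lalb_Chr08g0240411, which breaks down phospholipid remains, stood at 1.78, 3.08 and 1.47 CPM at 40 min and had no reads at 80 min, at least 60.3-fold lower by the same floor (edgeR adjusted p 0.552). A serine/threonine protein phosphatase gene, Lalb_Chr05g0229471, had reads at 80 min alone, at 2.61, 3.26 and 1.60 CPM, and none in the other 9 plants. Of the 4 remaining genes at 0 reads at 80 min, each also had no reads in 2 to 5 of the 6 plants at 0 and 20 min.

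Presence that changed from plant to plant was also found within a time. The bHLH gene Lalb_Chr10g0100601 had 6.27 CPM in 40 min replicate 2 and no reads in the other 5 plants, and DESeq2 gave it an adjusted p of 2.32e-12 where edgeR gave 1. A DnaJ-domain gene, Lalb_Chr16g0376201, stood at 13.6, 25.1 and 0.0507 CPM at 40 min and below 0.1 CPM in every plant at 80 min (DESeq2 adjusted p 2.36e-05, edgeR 0.881). A ribosomal S4/S9 gene, Lalb_Chr12g0196801, stood at 143 CPM in 80 min replicate 1 and between 0.119 and 0.532 CPM in the other 5 plants. Such genes differ between plants of the same time by as much as between times.

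In all, 21 genes were called by DESeq2, by limma voom with library quality weights, by edgeR without 80 min replicate 3, and by edgeR without that plant and 20 min replicate 2, with 6 higher and 15 lower at 80 min. Among the higher were the heat shock factor gene Lalb_Chr09g0321131, the WD40 gene Lalb_Chr22g0355491, the ClpB gene, and a RING-type ligase gene, Lalb_Chr20g0116861, at 6.89, 9.47 and 9.14 CPM against 36.8, 34.8 and 13.1 CPM. Among the lower were the CSD factor, the ACC synthase, the peroxidases Lalb_Chr18g0052481 and Lalb_Chr04g0251831, the cellulose synthase, the glutathione peroxidase, the cytokinin dehydrogenase Lalb_Chr07g0180871, the chitinase, the RALF gene and the WRKY factor Lalb_Chr10g0098011. An FtsH-type protease gene, Lalb_Chr03g0026511, stood at 36.6, 54.4 and 47.5 CPM at 40 min and at 9.17, 13.6 and 24.0 CPM at 80 min. A t-SNARE gene, Lalb_Chr20g0111321, of the proteins that fuse vesicles with membranes, stood at 14.0, 12.1 and 17.0 CPM and at 4.12, 4.60 and 7.20 CPM. An inorganic diphosphatase, Lalb_Chr04g0254121, stood at 15.7, 26.0 and 30.7 CPM and at 3.79, 2.99 and 11.2 CPM. These 4 fits share the libraries and are not independent of each other.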

How the data were processed

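Poly(A) RNA of 12 root tip samples was sequenced as paired ends after a stranded mRNA kit, per the labels. The submitters' processing notes name bcl2fastq 2.20, FastQC, Trimmomatic 0.32, HISAT2, StringTie and DESeq2. Which build was used, how strand was set and how reads with several matches were counted is not given in the sources used here. The deposited table holds whole-number read counts and FPKM values per gene and library. FPKM, made by the authors, was used only to compare levels between genes. All 33388 gene IDs matched RefSeq names of assembly CNRS_Lalb_1.0, and protein names come from the deposited table.

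Counts were filtered by filterByExpr, scaled by TMM and fitted over all 12 libraries by group with edgeR 4.0.16 (robust quasi-likelihood, R 4.3.3). The contrast was 80 min minus 40 min with Benjamini-Hochberg adjustment and a threshold of 0.05. The standard error is the log2 fold change over the square root of F. The script was tested on simulated data with less spread between plants than in these data. That test does not show how many changes the fit would miss here. DESeq2 1.42.0 and limma 3.58.1 served as alternatives, with other scaling, no filter, the 6 libraries alone, a replicate block and each library left out in turn. CPM use TMM-scaled library sizes, and log2 CPM a prior count of 2.

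The gene members and the 46 lists, made from words in protein names, were chosen with earlier results of these data known. Named genes were the 6 per direction with the lowest p, at least 2 CPM and no overlap, the lowest-p and most abundant gene of each list, and 5 per direction from the fit without 80 min replicate 3. Further genes that DESeq2 or edgeR listed were named after their values were seen. Lists were described by counts and medians, with no set test. Read totals at 40 and 80 min ran from 60412399 to 105299704, and each time had 3 plants.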

Additional observations from a re-analysis of the deposited data

How the results depend on the processing

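No gene passed edgeR's adjusted p of 0.05 with all libraries, nor with DESeq2 size factors, without the low-count filter, with the replicate block or without the robust option. DESeq2 called 97 genes higher and 155 lower, and limma voom with library quality weights called 96 and 582. The 6 libraries at 40 and 80 min alone gave 0 higher and 1 lower. Without 20 min replicate 2 and 80 min replicate 3 together, edgeR called 146 higher and 523 lower. Leaving out 1 library at a time gave 0 to 18 higher and 0 to 164 lower, both highest values without 80 min replicate 3, and 0 to 2 lower without any other library. The cause was not tested. No gene named for a low p changed sign under any alternative. These genes were chosen from the same libraries for a low p, and some also for levels without overlap. The kept sign was thus largely fixed by the choice and is not separate support. Of all 103 genes named by rule, 18 changed sign under at least 1, each chosen as the most abundant of its list. Of the 46 list medians, 19 changed sign under at least 1, with 9 doing so without 80 min replicate 3, 9 without 40 min replicate 2, 9 without 20 min replicate 2 and 80 min replicate 3 together, and 6 in limma voom with library quality weights. Without 80 min replicate 3 the medians went from 0.18 to -0.10 for abscisic acid, from 0.14 to -0.33 for cytokinin and from 0.40 to -0.20 for clock genes. Replicate numbers did not pair the plants (correlations of deviations 0.103, -0.164 and -0.164), and the replicate block called 0 genes higher and 0 lower. DESeq2 gave no adjusted p for 1022 genes. Depth did not limit genes of several CPM, but a gene at 0 reads is bounded only by 3 reads per library.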
